A study of Apis mellifera with 6 samples.

Results

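The subject is a tandem stretch of linkage group 11 of the honeybee (Apis mellifera) genome. Its RNA was counted in the hypopharyngeal gland, the paired head gland with which worker bees make brood food. The stretch carried a large part of the counted fragments in colonies given pollen, but at most 2.71% in colonies on honey alone. Its members are the 8 plus-strand gene models listed on sequence NC_007080.3 between positions 2563562 and 2614036, out of 10704 models in the deposited files. The stretch was chosen by its fragment counts, because 7 of its 8 models reached 10000 or more in at least 1 library, so the members' levels and their differences between the groups are given as a description, with no test. Over all models, 0.542% reached that level. Positions are those of the deposited files, whose genome build is not named. Of the 7 models that reached 10000 fragments, gene8628 had the lowest peak, with 74052 in its highest library. The only member that did not reach 10000 was gene8632, whose highest library held 65.

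The hypopharyngeal gland of young workers, the nurses, secretes the protein part of royal jelly and worker jelly, and its activity is known to depend on pollen as a protein source and on the presence of brood. The main secreted proteins are the major royal jelly proteins, a family related to the yellow proteins of insects. In the RefSeq gene table of assembly Amel_HAv3.1, 9 genes with an Mrjp symbol lie close together on linkage group 11, with 3 other genes listed between the first and the last of them. None of the deposited IDs matched that table (0 of 10704), so no member is paired here with a name or a known role, and the tissue could not be checked against named marker genes.

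There were 6 libraries, each from 1 colony, in 3 groups of 2. In the Brood group the colonies had honey and plentiful rape pollen and a queen free to lay. In the Pollen group they had the same food, but a caged queen, so that brood dwindled. In the Honey group they had honey without pollen and a caged queen as well. The glands came from worker bees in all groups, and how many bees went into a library is not stated in the labels. The age is in conflict, since all bees are 9 days old by the series text, but by the sample labels they were 13 and 14 days old in Brood 1 and 2, 9 and 10 days in Pollen 1 and 2, and 11 and 12 days in Honey 1 and 2. If the labels hold, group and age cannot be told apart by comparing groups. The libraries held 2764870 to 4153354 counted fragments, so that 3 fragments, the upper limit behind a count of 0, stand for 0.722 to 1.09 CPM (counts scaled to a common library size, here by the raw total).

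The members were evenly built. Apart from gene8632, they spanned 3110 to 3540 bases each, with model lengths of 1338 to 1798 bases. The exception, gene8632, spanned 977 bases with a model length of 582. The space from one member to the next was 2255 to 2977 bases in 6 of 7 cases, and 10706 bases between gene8632 and gene8634. In genome order the members were gene8627 (2563562 to 2566839), gene8628 (2569547 to 2572833), gene8629 (2575604 to 2578838), gene8630 (2581588 to 2584699), gene8631 (2586955 to 2590494), gene8632 (2592827 to 2593803), gene8634 (2604510 to 2607949) and gene8636 (2610927 to 2614036). The files list no other model inside the stretch, on either strand.

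Together, the 8 models had their largest share of the counted RNA in colonies with a laying queen and their smallest in colonies on honey alone. They held 31.9% and 35.8% of all fragments in Brood 1 and 2, 17.7% and 22.9% in Pollen 1 and 2, and 2.71% and 1.65% in Honey 1 and 2. The 3 groups did not overlap in these shares of fragments, and counting error was small beside the spread between colonies, with 95% Wilson intervals of at most 0.05 percentage points to either side. By deposited FPKM, which divides by length, Brood and Pollen did overlap. The stretch held 4.39% and 5.29% of summed FPKM in Brood 1 and 2, 3.68% and 5.42% in Pollen 1 and 2, and 0.739% and 0.419% in Honey 1 and 2. Most of summed FPKM, 64.4% to 77.3%, was held by 1 model of 237 bases that is not a member. Of the 10 most abundant models of each library, 4 were members in both Brood libraries, 5 in both Pollen libraries and 1 in both Honey libraries. In bulk glands, more gland cells and more RNA per cell cannot be told apart. In CPM scaled by TMM, which sets libraries to a common level by their typical model, the sum over the 8 models was 513294 ± 10824 in Brood, 222753 ± 1042 in Pollen and 12798.5 ± 2737 in Honey (SD, n = 2 each). It was 17.4-fold higher in Pollen than in Honey, 2.30-fold higher in Brood than in Pollen and 40.1-fold higher in Brood than in Honey. Restricted to the 5 members with fragments in every library, these differences were 30.7-fold, 4.14-fold and 127-fold, and with libraries scaled by their totals the sum of all 8 differed 9.31-fold, 1.67-fold and 15.5-fold.

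**Figure D1:**
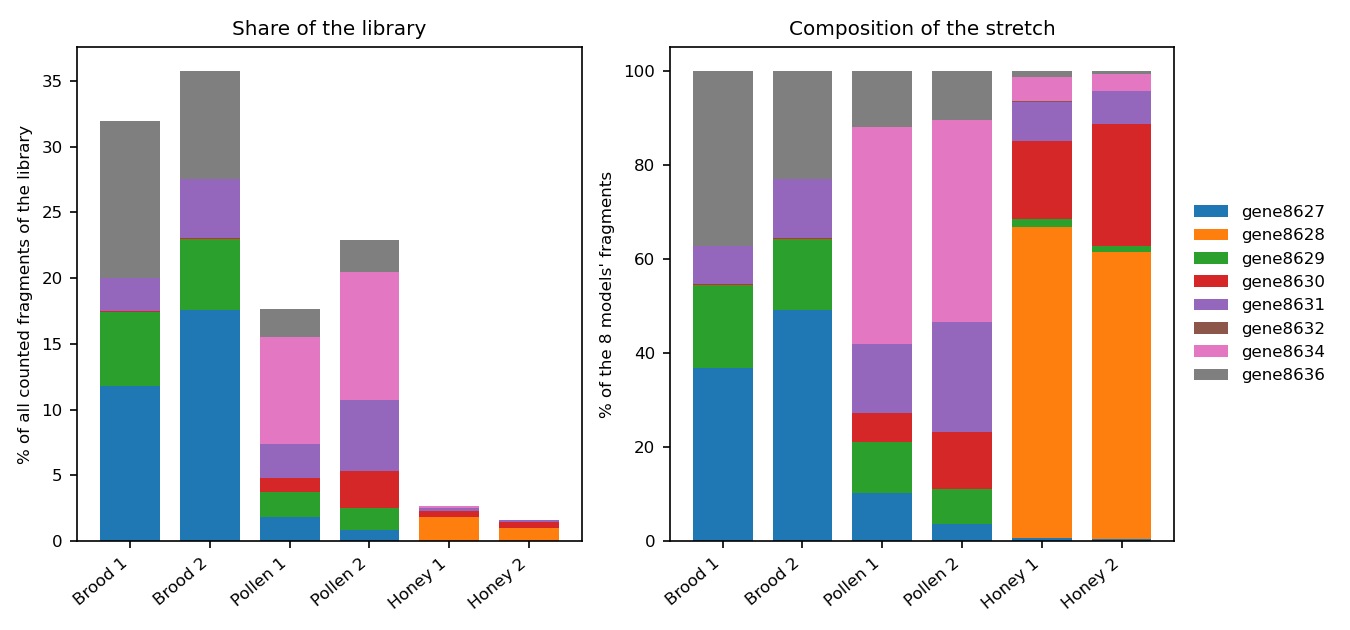
Stacked bars for the 6 libraries, with 1 colour per model. The left panel gives each model's share of all counted fragments of the library in percent, and the right panel its share of the fragments of the 8 models; the stretch takes 31.9% and 35.8% in Brood, 17.7% and 22.9% in Pollen and 2.71% and 1.65% in Honey, and the leading model is gene8636 or gene8627 in Brood, gene8634 in Pollen and gene8628 in Honey.

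By fragments as listed, each group had its own leading model or pair of models. In Brood, gene8627 and gene8636, the first and the last model of the stretch, held 74.2% and 72.1% of its fragments in libraries 1 and 2. The order of this pair differed between the colonies, since gene8636 led in Brood 1 with 37.3% and gene8627 led in Brood 2 with 49.1%. In Pollen, gene8634 led with 46.0% and 42.7%. In Honey, gene8628 led with 66.2% and 61.0%. None of these 4 leaders led in a library of another group. But gene8634 and gene8628 are listed at 0 in both libraries of at least 1 other group, and the cause was not tested. Among the 5 members with fragments in every library, gene8631 led in Pollen 1 and 2 with 27.3% and 40.8%. In Honey 1 and 2, gene8630 led these 5 with 58.6% and 73.2%, and the Brood leaders were unchanged. Of the whole stretch, gene8627 held 43.0% ± 8.67 in Brood, 6.93% ± 4.74 in Pollen and 0.578% ± 0.0880 in Honey (SD, n = 2 each). The leading pair of each library held 73.1% ± 1.49 of the stretch's fragments in Brood, 63.4% ± 3.80 in Pollen and 84.9% ± 2.80 in Honey (SD, n = 2 each), where the stretch was most concentrated.

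The models gene8627, gene8629 and gene8636 stood highest in Brood, lower in Pollen and lowest in Honey. The first model, gene8627, had 407382 and 619743 fragments in Brood 1 and 2, 75428 and 29141 in Pollen 1 and 2, and 716 and 235 in Honey 1 and 2. These counts placed it at ranks 3 and 2 among all models in Brood 1 and 2, at ranks 9 and 11 in Pollen and at ranks 866 and 1359 in Honey. No library of one group overlapped another group. The log2 change fitted by edgeR was 7.68 in Pollen vs Honey (205-fold), 3.84 in Brood vs Pollen (14.4-fold) and 11.52 in Brood vs Honey (2937-fold). Over all models, the median log2 change in these comparisons was -0.014, -0.004 and 0.047 with TMM. Scaled by library totals, it was -0.90, -0.46 and -1.30, and gene8627 had log2 changes of 6.67, 3.48 and 10.14. Between the closest libraries of the groups, CPM differed 84.9-fold in Pollen vs Honey and 8.17-fold in Brood vs Pollen. The Pollen colonies themselves differed 2.85-fold in CPM, the widest gap between colonies among members of 100 or more fragments in both libraries of a group.

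The last model, gene8636, had 412262 and 289320 fragments in Brood, 88691 and 86271 in Pollen, and 1556 and 362 in Honey. Among all models it stood at rank 2 or 3 in the Brood libraries, at rank 6 or 7 in the Pollen libraries and at ranks 413 and 988 in Honey. Its log2 change was 7.44 in Pollen vs Honey, 2.61 in Brood vs Pollen and 10.04 in Brood vs Honey, or 6.49, 2.14 and 8.62 with library totals. The third model, gene8629, had 194587 and 190323 fragments in Brood, 79246 and 60587 in Pollen, and 1703 and 581 in Honey. Its log2 change was 6.81 in Pollen vs Honey, 2.05 in Brood vs Pollen and 8.85 in Brood vs Honey, or 5.86, 1.61 and 7.46 with library totals. For both models the groups were apart in every library, with CPM between the closest Brood and Pollen libraries differing 4.45-fold for gene8636 and 3.28-fold for gene8629. Across the 6 libraries, log2(CPM + 1) of gene8636 and gene8629 correlated at 0.998, as a description of 6 points that fall into 3 groups.

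**Figure D2:**
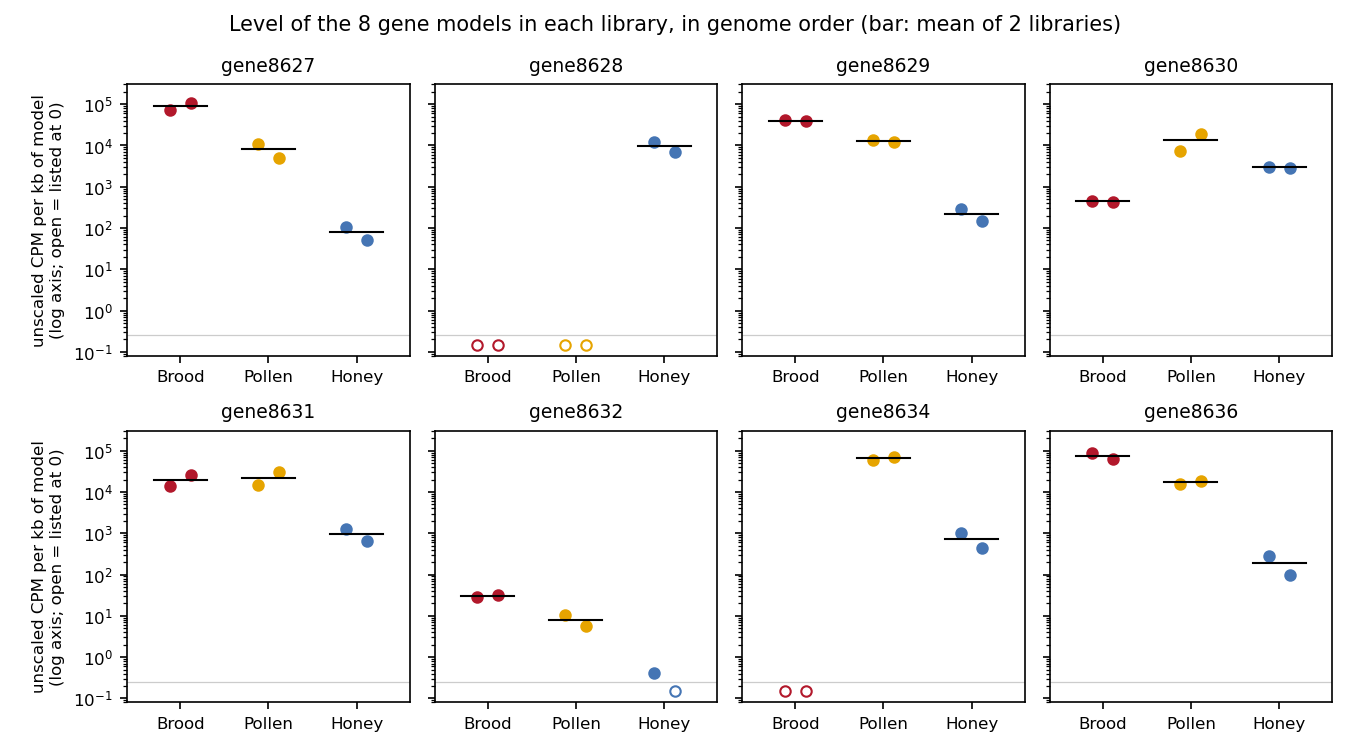
Unscaled CPM (of the raw library total) per kilobase of model length, on a log axis, for each of the 8 models (panels in genome order) in Brood, Pollen and Honey. Points are libraries, bars are means of 2 libraries and open points are libraries listed at 0; gene8627, gene8629 and gene8636 step down from Brood to Honey, gene8630 and gene8634 peak in Pollen, and gene8628 has values in Honey alone.

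The fifth model, gene8631, was high with pollen whether or not the queen laid. It had 88124 and 159508 fragments in Brood, 108121 and 189922 in Pollen, and 9271 and 3163 in Honey. Brood and Pollen overlapped, at 53109 ± 18068 CPM in Brood and 42453 ± 13772 CPM in Pollen (SD, n = 2 each), and both lay above Honey at 988 ± 330 CPM. Its log2 change was 5.43 in Pollen vs Honey and 5.75 in Brood vs Honey, or 4.55 and 4.38 with library totals. In Brood vs Pollen it was 0.32, but -0.17 with libraries scaled by their totals and -0.081 without Brood 2, so that no direction can be given.

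The fourth model, gene8630, was highest in Pollen and lowest in Brood. It had 2366 and 2261 fragments in Brood, 44838 and 99720 in Pollen, and 18741 and 11833 in Honey. The groups did not overlap, although the Pollen colonies differed 2.02-fold in CPM. Its log2 change was 2.95 in Pollen vs Honey, -4.34 in Brood vs Pollen and -1.39 in Brood vs Honey. With library totals these were 2.14, -4.88 and -2.74. Between the closest libraries, CPM was 12.5-fold lower in Brood than in Pollen and 2.28-fold lower in Brood than in Honey. It held 0.214% and 0.179% of the stretch's fragments in Brood 1 and 2, against 16.8% and 26.0% in Honey 1 and 2, where it came after gene8628. All 5 members with fragments in every library were higher in Pollen than in Honey, but of these gene8630 alone was lowest in Brood. Its correlations with the other 4 in log2(CPM + 1) over 6 libraries were -0.17 to 0.15, whereas those among the other 4 were 0.94 to 0.998.

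The other abundant members, gene8634 and gene8628, had a 0 in both libraries of 1 or more groups, and for comparisons with such a group no fold change is given. The model gene8634 had 0 fragments in Brood 1 and 2, 337402 and 347627 in Pollen 1 and 2, and 5802 and 1616 in Honey 1 and 2. In Pollen 1 and 2 it had ranks 3 and 2 among all models, with 8.12% and 9.80% of fragments. Its log2 change in Pollen vs Honey was 7.42, or 6.49 with library totals, and CPM in the closest libraries of these groups differed 125-fold. The model gene8628 was listed at 0 in all Brood and Pollen libraries and had 74052 and 27774 fragments in Honey, where it had ranks 4 and 7 among all models, with 1.80% and 1.00% of fragments. Its replicate colonies differed 1.47-fold in CPM. Such a pattern, 0 in a library beside 10000 or more fragments in another, was shown by 4 models in all, these 2 and 2 outside the stretch. The cause of the zeros was not tested, and the sums over 8 models above include them as listed.

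The short model gene8632 was near the limit of counting. It had 57 and 65 fragments in Brood, 25 and 12 in Pollen, and 1 and 0 in Honey. All libraries of Brood lay above those of Pollen, with 26.5 ± 0.538 CPM in Brood and 5.43 ± 3.02 CPM in Pollen (SD, n = 2 each), a log2 change of 2.29. The same order, Brood above Pollen above Honey, was seen in gene8627, gene8629 and gene8636. It held at most 0.00516% of the stretch's fragments in any library.

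Counted over the members, 7 of 8 lay higher in both Pollen libraries than in both Honey libraries and 1, gene8628, lower, where 26.9% of the 6943 models tested were higher without overlap and 27.9% lower. In Brood vs Pollen, 4 were higher, 2 were lower or listed at 0, and 2 overlapped (37.1% higher and 38.3% lower over all models). Of that last pair, gene8628 was listed at 0 in all 4 libraries. In Brood vs Honey, 5 were higher and 3 lower or listed at 0 (40.4% and 39.6%). All 8 members passed the filter on low counts. The median log2 change over members without a 0 in the libraries compared was 7.12 in Pollen vs Honey (6 members), 2.17 in Brood vs Pollen (6) and 8.85 in Brood vs Honey (5), beside medians of -0.01, 0.00 and 0.05 over all models. Since the members were picked for high counts, these counts and medians are not evidence for a change of the stretch. The 3 comparisons share libraries.

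Levels of different members were compared per length, as CPM of the raw total (unscaled CPM) per kilobase of model length. In Brood, gene8627 (89772 ± 25105) and gene8636 (75200 ± 19603) overlapped at the top, followed without overlap by gene8629 (39510 ± 1144), gene8631 (19666 ± 7777), gene8630 (450 ± 20.4) and gene8632 (30.0 ± 2.38; SD, n = 2 each). In Pollen, gene8634 stood alone at 65949 ± 8730, and the next was gene8631 at 22130 ± 10822. Below these, gene8636 (17070 ± 1570), gene8630 (13208 ± 8315) and gene8629 (12961 ± 1012) each overlapped the neighbour above. The next, gene8627 (8066 ± 4301), lay below gene8629 without overlap but overlapped gene8630. In Honey, gene8628 (9478 ± 3791) led over gene8630 (2997 ± 129) without overlap. Then came gene8631 (944 ± 435) and gene8634 (733 ± 428), which overlapped. Below them without overlap were gene8629 (223 ± 103), gene8636 (190 ± 130) and gene8627 (79.1 ± 38.4), of which the last 2 each overlapped the neighbour before it. The rank of a member by deposited FPKM was the same as by this measure in all 41 values above 0, and its rank by fragments alone in 39.

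Colonies of the same group differed in the mix of members. The scaled sums of the 2 colonies were near each other in Brood and Pollen and less so in Honey, at 14734 and 10863 CPM in Honey 1 and 2. In Pollen, the 8 models summed to 222016 and 223490 CPM in libraries 1 and 2. Yet gene8627 held 10.3% of the stretch in Pollen 1 and 3.58% in Pollen 2, gene8630 6.11% and 12.3%, and gene8631 14.7% and 23.4%. In Brood the sums were 505640 and 520947 CPM, and gene8636 held 37.3% in Brood 1 and 22.9% in Brood 2. The nearness of the Pollen sums rests on the scaling, since as shares of the library they were 17.7% and 22.9%. By the sample labels the colonies of each pair also differed by 1 day in age.

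The models on either side of the stretch were set by position alone, and their group differences were tested. They were the 10 nearest models on each side, and 11 of these 20 had enough fragments, 3 before and 8 after the stretch. The highest count of a flanking model in any library was 3165 fragments, in Honey 1, where gene8627, gene8629 and gene8636 had fewer. In Pollen vs Honey, edgeR's quasi-likelihood test called 4 of the 11 higher and 1 lower, where it called 4.32% of all models higher and 1.84% lower. In Brood vs Pollen it called 4 higher and 4 lower, where over all models 22.4% were higher and 26% lower. In Brood vs Honey it called 5 higher and 4 lower, where over all models 28.4% were higher and 28.8% lower. On the rest of linkage group 11, 6.5%, 48% and 56.7% of models were called in either direction in these 3 comparisons.

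The tested models nearest to the stretch, at 838, 3457, 10858 and 18450 bases from it, were all higher in Brood than in Honey. They had 13 or fewer fragments in each Honey library, so they passed the filter on low counts through other groups. Their direction against Honey was thus in large part set by the filter, and no pattern with position is drawn from it. The models at 13598, 29473 and 34123 bases had 5 or fewer fragments in every library and were not tested. The nearest, gene8638, had 181 and 281 fragments in Brood, 224 and 191 in Pollen, and 13 and 0 in Honey. It rose in Pollen vs Honey (log2 change 5.80, adjusted p = 0.0002, edgeR) and in Brood vs Honey (6.53, adjusted p = 1.23e-05, edgeR), and in Brood vs Pollen it did not pass the threshold (0.73, adjusted p = 0.159, edgeR). These fitted changes against Honey rest on 13 fragments and depend on the prior count. On the other side, gene8626 had 457 and 341 fragments in Brood, 187 and 1 in Pollen, and 1 and 0 in Honey. It rose in Brood vs Honey (log2 change 10.55, adjusted p = 0.000281, edgeR), where the ratio of summed CPM was 2042 with an exact counting interval of 365 to 80748. Its call in Pollen vs Honey (log2 change 7.92, adjusted p = 0.0184, edgeR) rested on 187 fragments in Pollen 1 and was lost without that library (adjusted p = 0.835), without Honey 1 (0.156) and without Honey 2 (0.0879), with a range over 15 alternatives of 8.27e-32 (no filter on low counts) to 0.930 (age as a covariate). Its call in Brood vs Pollen (2.63, adjusted p = 0.0356, edgeR) was lost without Brood 1 (0.116), with a range of 4.75e-12 (no filter) to 0.350 (DESeq2).

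The model gene8641 had 234 and 171 fragments in Brood, 7 and 7 in Pollen, and 3 and 3 in Honey. It rose in Brood vs Pollen (log2 change 5.44, adjusted p = 1.46e-05, edgeR) and in Brood vs Honey (7.34, adjusted p = 1.38e-06, edgeR), and in Pollen vs Honey it was not called (1.91, adjusted p = 0.0978). The model gene8642 had 25 and 34 fragments in Brood, 5 and 8 in Pollen, and 1 and 0 in Honey. It rose in Brood vs Pollen (log2 change 2.75, adjusted p = 0.00141, edgeR) and in Brood vs Honey (6.78, adjusted p = 3.09e-05), where the ratio of summed CPM was 151 with an exact counting interval of 26.1 to 6063. Its call in Pollen vs Honey (log2 change 4.03, adjusted p = 0.0209, edgeR) was lost without Pollen 2 (0.0840), without Honey 1 (0.109) and without Honey 2 (0.0983), with a range of 0.00164 to 0.226 over 15 alternatives. With the ages of the labels as a covariate, gene8638, gene8626, gene8641 and gene8642 were still called in Brood vs Honey. In Brood vs Pollen, the calls of gene8626, gene8641 and gene8642 were lost. The age slope comes only from the 1-day difference between the colonies of each group, extended to the age gaps between groups. These outcomes therefore do not test age and lend the calls no support.

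Farther out, where the tested models had more fragments in Honey, the direction varied. After the stretch, in Brood vs Honey, the model at 48373 bases rose (log2 change 1.42, adjusted p = 0.00473, edgeR). Those at 70790 and 105135 bases fell (-1.52 and -1.23, adjusted p = 0.00275 and 0.00927, edgeR). The model at 60423 bases rose in Pollen vs Honey (2.45, adjusted p = 0.00133, edgeR) and fell in Brood vs Pollen (-1.64, adjusted p = 0.00246, edgeR). With age as a covariate, each of these calls was lost. The call at 48373 bases was also lost with library totals (0.12, adjusted p = 0.789, edgeR). Those at 70790 and 105135 bases were also lost with the length trend removed (-0.43 and -0.09, adjusted p = 0.336 and 0.849, edgeR). The models gene8602 and gene8608, 472932 and 381166 bases before the stretch, fell in Brood vs Honey (log2 changes -5.44 and -5.17, adjusted p = 1.77e-05 and 2.73e-05, edgeR) and in Brood vs Pollen (-4.24 and -2.99, adjusted p = 0.000165 and 0.00115), where the call of gene8608 was lost with age as a covariate (adjusted p = 0.0732). In Brood, gene8602 had 6 and 9 fragments, against 145 and 292 in Pollen and 688 and 815 in Honey. In Pollen vs Honey gene8602 did not pass the threshold (log2 change -1.19, adjusted p = 0.0982, edgeR), and 4 of 15 alternatives called it. The model gene8608 was lower in Pollen than in Honey (log2 change -2.19, adjusted p = 0.0107, edgeR), a call lost without Honey 2 (0.0926), with a range of 7.22e-09 to 0.969 over 15 alternatives.

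**Figure D3:**
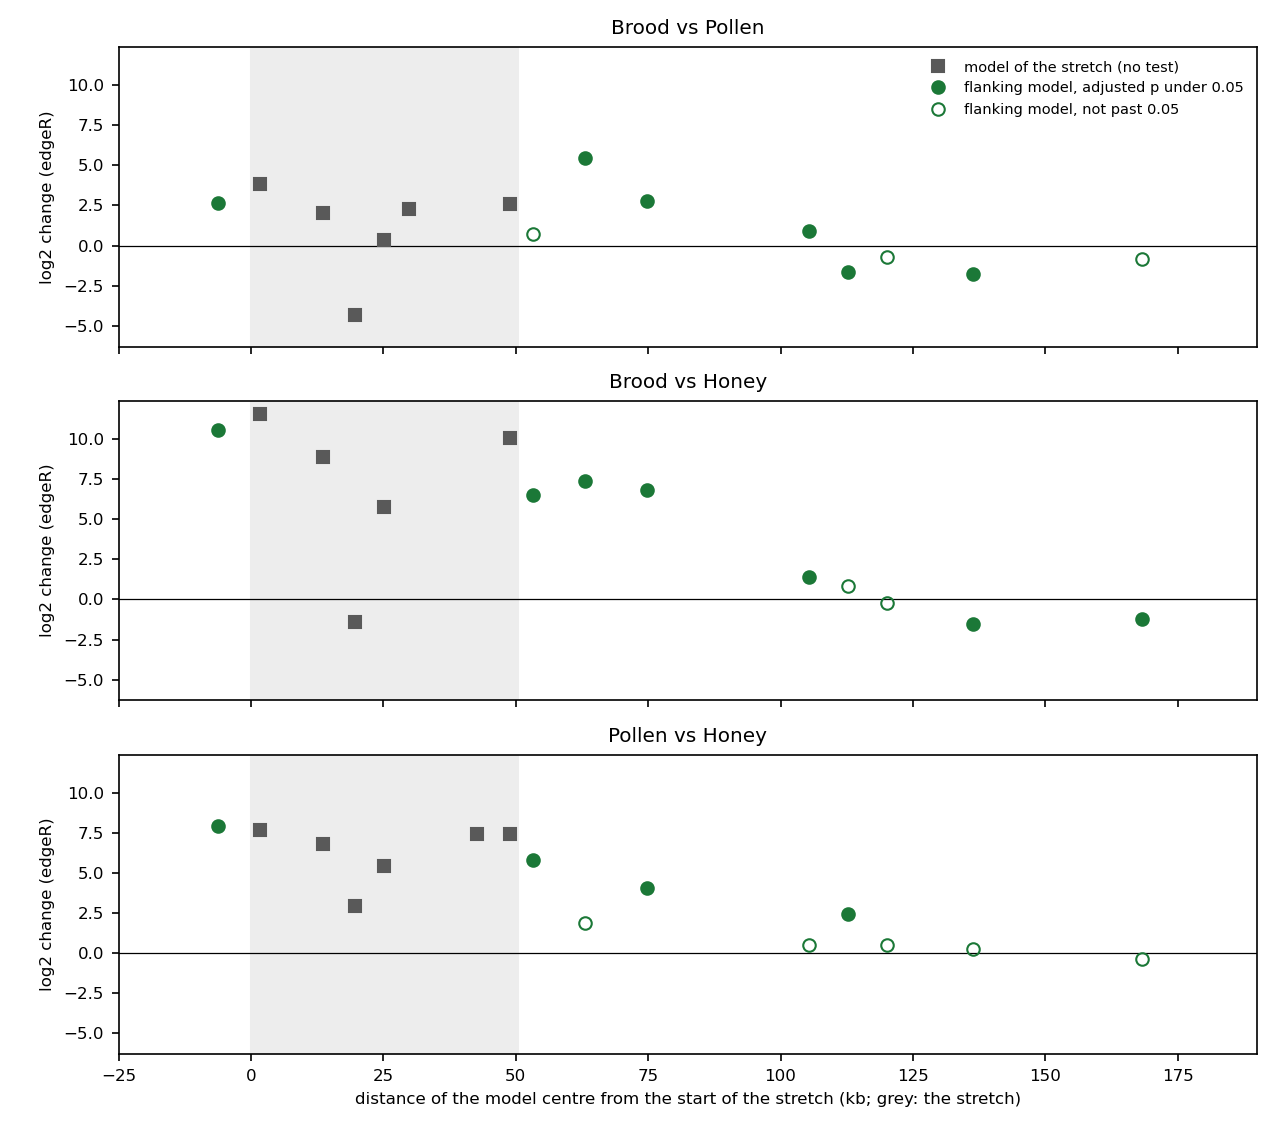
Log2 change fitted by edgeR against the distance of each model's centre from the start of the stretch in kb, for Brood vs Pollen, Brood vs Honey and Pollen vs Honey. Grey squares are models of the stretch without a 0 in the libraries compared, shown with no test. Circles are 9 of the 11 flanking models tested, filled where the adjusted p was under 0.05. The circles nearest to the grey band lie above 0 in all panels. These models had few fragments in Honey and passed the filter on low counts through other groups.

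Elsewhere in the genome, the models whose levels ran most like the sum of the 5 members with fragments in every library were gene11350 and gene13370, by Pearson's correlation of log2(CPM + 1) over the 6 libraries (0.994 and 0.993) among 686 models with 1000 or more fragments in a library. The model gene11350, at 6115532 to 6120177 on sequence NC_007084.3, had 35047 and 32560 fragments in Brood, 29154 and 30329 in Pollen, and 12035 and 8188 in Honey, a much flatter course than that of the stretch. The model gene13370, at 35 to 1903 on an unplaced scaffold, had 181409 and 204021 fragments in Brood, 10544 and 9634 in Pollen, and 124 and 61 in Honey. Such correlations are a description of 3 groups of 2 points each, and 3 models passed 0.99.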

How the data were processed

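RNA of hypopharyngeal glands was made into libraries with the NEBNext Ultra kit from 3 ug of total RNA, per the labels' protocols. The aligner, counting tool, annotation, genome build and use of strand are not given in the sources used here. Per the file headers, the authors deposited a raw fragment count, a normalized count (read here as a signal) and an FPKM value for each of 10704 models, 360 of them added by the authors. In the members, the deposited normalized signal was the count times 1 factor per library within 1 fragment in 40 of 41 values above 0. Members were not compared in sequence, so fragments shared between similar members were not assessed.

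Counts were fitted with edgeR 4.0.16 in R 4.3.3 (filterByExpr with minimum count 10, TMM, glmQLFit and glmQLFTest, two-sided), with all 6 libraries in 1 fit of 3 group means, 3 residual degrees of freedom and Benjamini-Hochberg adjustment over the 6943 models kept; 0.05 was the threshold. TMM factors ran from 0.632 to 1.85. CPM use the TMM-scaled total unless called unscaled, which use the raw total; levels per kilobase use the deposited model length. The colonies were separate per the labels; replicate counts differed by 27.3 to 117 times the sampling variance. Intervals cover counting error only.

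The members and lists were chosen with earlier results of these data known. All 8 members are named; flanking models are named if called, at most 2 per direction and comparison by size of change, and are then described in every comparison. Alternatives were library totals, DESeq2 1.42.0, no filter, a replicate block, age, limma 3.58.1 on log2(FPKM + 1) and log2(FPKM + 0.1), removal of each library's length trend, leaving out the 4 models listed at 0, and leaving out each library. With the labelled ages, the age fit and the replicate block fit span the same model. The age fit extends the difference between replicates 1 and 2 to the age gaps between groups. The code of the edgeR fit was run on simulated counts with the same spread for all models. This spread need not match that between these colonies. That run is no support for the calls. No sequence is printed, since no table used here pairs the IDs with sequences.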

Additional observations from a re-analysis of the deposited data

How the results depend on the processing

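Of the members' log2 changes, 17 could be given, and 16 kept their direction under the alternatives run. The exception was gene8631 in Brood vs Pollen (0.32), at -0.17 with library totals, -0.63 with age as a covariate and -0.081 to 0.71 when single libraries were left out. In all, 223 of 254 values moved by less than the spread between colonies, 28 moved by more and 3 reversed. The log2 change of the summed members was 4.12 in Pollen vs Honey, 1.20 in Brood vs Pollen and 5.33 in Brood vs Honey with TMM. In the same order it was 3.22, 0.74 and 3.96 with library totals, 4.94, 2.05 and 6.99 over the 5 members with fragments in every library, and 1.24 in Brood vs Pollen with the deposited normalized counts. By deposited FPKM the stretch held 4.84% in Brood, 4.55% in Pollen and 0.579% in Honey, and Brood and Pollen overlapped; 1 model of 237 bases held 64.4% to 77.3% of summed FPKM. Over the 5 members alone its share of fragments was 11.3% in Pollen and 0.681% in Honey. The number of flanking models called in Pollen vs Honey (5) became 1 with age, 2 in limma on log2(FPKM + 1) and 3 on log2(FPKM + 0.1), and 2 to 5 when single libraries were left out. In Brood vs Pollen (8) it became 1 with age, whose slope comes only from the 1-day difference between the colonies of each group. The causes of the other shifts were not tested. With the replicate block the counts were 6, 7 and 10 against 5, 8 and 9. Same-numbered libraries deviated with correlations of 0.15, 0.04 and -0.09 between groups, so the numbers were not taken to pair colonies. Depth limits gene8632 and the flanking models in Honey, where 3 or fewer fragments stand behind several values.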
